A study of Mus musculus with 5 samples.

Results

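The 10 genes described here encode subunits of Polycomb repressive complex 2 (PRC2), and were picked by symbol: Eed, Ezh2, Ezh1, Suz12, Rbbp4, Rbbp7, Jarid2, Aebp2, Mtf2 and Phf19. All 10 were found among the 27919 rows with a gene symbol, and all 10 were among the 13989 genes with enough counts to be tested. RNA came from mouse forebrain at E12.5 (embryonic day), from untreated C57BL/6 embryos that the submitters call littermates, with 2 libraries labelled wild type and 3 labelled EedcKO. The labels give EedcKO as the genotype, name no other allele or agent in either group, and do not say which Cre line was used, in which cells it acted, or which part of Eed was removed. Nothing in them says that the libraries come from different embryos, and p-values then reflect only how far these libraries spread, which may in part be technical.

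PRC2 places methyl groups on lysine 27 of histone H3 and thereby keeps developmental genes silent in cells that should not use them. EZH2 or EZH1 carries the methyltransferase activity, EED binds the finished mark and stimulates the enzyme, SUZ12 holds the complex together, and RBBP4 or RBBP7 contacts histones. Accessory subunits divide the complex into a form with a Polycomb-like protein such as MTF2 or PHF19 (PRC2.1) and a form with JARID2 and AEBP2 (PRC2.2). In the developing cortex, EZH2 is known as the enzyme of dividing progenitors, while EZH1 is known to persist in cells that have stopped dividing.

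Libraries held 4723794 to 4922228 counts in rows with a symbol. The forebrain markers Emx1, Emx2 and Lhx2 had counts in all 5 libraries, and 3 of 11 forebrain markers (Otx1, Fezf2 and Pax6) passed the test described below as higher in EedcKO, as did 1.04% of all genes tested. The library labelled wild type 2 stood apart in markers of other tissues. Its Eed level also lay in the EedcKO range, as described below. So wild type 1 and wild type 2 stand below for the libraries labelled so and not for a checked genotype. In wild type 2 the surface epithelium list of 7 genes summed to 256 CPM (counts scaled to library size), with 15.8 in wild type 1 and 24.2 to 38.3 among EedcKO libraries. The skeletal muscle list of 8 summed to 57.6 CPM there, with 8.20 in wild type 1 and 5.16 to 9.17 among EedcKO libraries. Krt5 and Krt14 were at 0 in wild type 1 and EedcKO 3, and Myog was at 0 in wild type 1, EedcKO 2 and EedcKO 3. None of either list was at 0 in wild type 2 or in EedcKO 1. The list of 12 cortical hem and choroid plexus markers was also highest in wild type 2, at 846 CPM, with 249 in wild type 1 and 86.7 to 359 among EedcKO libraries. Of the epithelium, muscle and cortical hem lists, 5 of 7, 2 of 8 and 11 of 12 genes had enough counts. None of these passed the test between the groups. By Xist and Y-linked counts, wild type 1, wild type 2 and EedcKO 1 were female and EedcKO 2 and 3 male. Wild type 2 had 12 Y-linked and 3127 Xist counts, against 2 and 5150 in wild type 1 and 0 and 5239 in EedcKO 1. The male libraries had 1670 and 1406 Y-linked counts. In bulk tissue, fewer cells of a type and less RNA per cell cannot be told apart.

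Promoter windows are shown for Ezh2, Suz12 and Phf19, the members in which an E2F-type word was found, and for Eed, the targeted gene. E2F transcription factors drive genes of DNA replication, and 2 E2F-type words, TTTCCCGC and TTTGGCGC, were searched on both strands. Each sequence runs 5′ to 3′ on the gene's strand, from 250 bases before to 30 bases into the RefSeq start (GRCm38.p6, the assembly of mm10), with any match in capitals (in Phf19 the match is on the other strand, so the capitals are its reverse complement).

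Ezh2 (chr6:47595001-47595280, minus strand): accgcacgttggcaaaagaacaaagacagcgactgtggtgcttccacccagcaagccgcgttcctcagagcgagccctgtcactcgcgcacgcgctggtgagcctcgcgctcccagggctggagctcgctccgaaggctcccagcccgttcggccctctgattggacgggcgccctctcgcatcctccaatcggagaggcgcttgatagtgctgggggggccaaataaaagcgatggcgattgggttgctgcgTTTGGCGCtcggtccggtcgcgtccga

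Suz12 (chr11:79992856-79993135, plus strand): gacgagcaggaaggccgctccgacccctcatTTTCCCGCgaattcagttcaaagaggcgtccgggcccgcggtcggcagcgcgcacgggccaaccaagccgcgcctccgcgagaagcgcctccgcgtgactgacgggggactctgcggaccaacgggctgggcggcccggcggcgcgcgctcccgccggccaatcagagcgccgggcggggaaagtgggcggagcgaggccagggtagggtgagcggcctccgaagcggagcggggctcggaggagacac

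Phf19 (chr2:34913947-34914226, minus strand): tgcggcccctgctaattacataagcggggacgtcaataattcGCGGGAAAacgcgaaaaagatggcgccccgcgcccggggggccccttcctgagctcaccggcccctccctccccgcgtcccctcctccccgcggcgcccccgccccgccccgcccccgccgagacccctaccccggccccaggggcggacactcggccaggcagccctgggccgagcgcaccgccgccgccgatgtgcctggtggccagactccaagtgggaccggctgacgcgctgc

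Eed (chr7:89980947-89981226, minus strand): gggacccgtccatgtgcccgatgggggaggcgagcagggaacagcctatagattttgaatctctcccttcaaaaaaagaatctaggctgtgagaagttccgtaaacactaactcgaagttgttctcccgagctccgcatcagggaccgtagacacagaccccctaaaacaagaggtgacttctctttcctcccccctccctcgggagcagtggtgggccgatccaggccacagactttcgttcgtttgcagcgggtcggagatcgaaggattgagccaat

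The match began 3 bases after the first transcribed base in Ezh2, 219 bases before it in Suz12 and 208 bases before it in Phf19. Windows of 300 bases (50 bases into the gene) were scanned, 14 for the 10 members, and these 3 held an E2F-type word, against 1.56% of all 32851 windows. The window of Eed held none. Of 4 other motifs scanned the same way, NRF1 (0.971% of all windows) and ETS (CCGGAAGT, 3.89%) had no match in the members, YY1 (AAGATGGCG, 1.40%) matched in Phf19, and SP1 (GGGCGG) matched in 9 of the 14 windows (35.7% of all windows). The matching windows were richer in G and C bases than most, at 64.3% for Ezh2, 71.0% for Suz12 and 74.3% for Phf19. The median of all windows was 52.7%, and Eed had 54.7%. The shares over all windows were not matched for this content. A match is a description of letters and not a measured binding site.

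All 10 genes were well expressed, with 98 to 1421 counts per library. Their order was read from TPM, which divides counts by gene length and then scales each library to a fixed total. The means over 5 libraries were 210 ± 5.33 TPM (SD, n = 5) for Rbbp7, 199.8 ± 14.4 for Ezh2 and 187 ± 24.4 for Suz12, which lie above 95.9% to 96.9% of the rows of that table. Mtf2 followed at 143 ± 14.1 TPM and Rbbp4 at 135 ± 7.17. Then came Jarid2 at 90.3 ± 10.4, Eed at 71.8 ± 19.5 and Aebp2 at 53.4 ± 4.51. Phf19 (23.7 ± 3.72) and Ezh1 (19.6 ± 2.04) were the lowest. The ranges over libraries did not overlap between Rbbp4 and Jarid2, between Eed and Aebp2, and between Aebp2 and Phf19. All other neighbours in this order overlapped. For these genes the deposited TPM used the length of all annotated exons, with overlapping exons merged. With the longest coding transcript as the length, Ezh2 ranked first, Rbbp7 the second and Rbbp4 the third, while Ezh1 and Phf19 stayed the lowest pair.

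**Figure D1:**
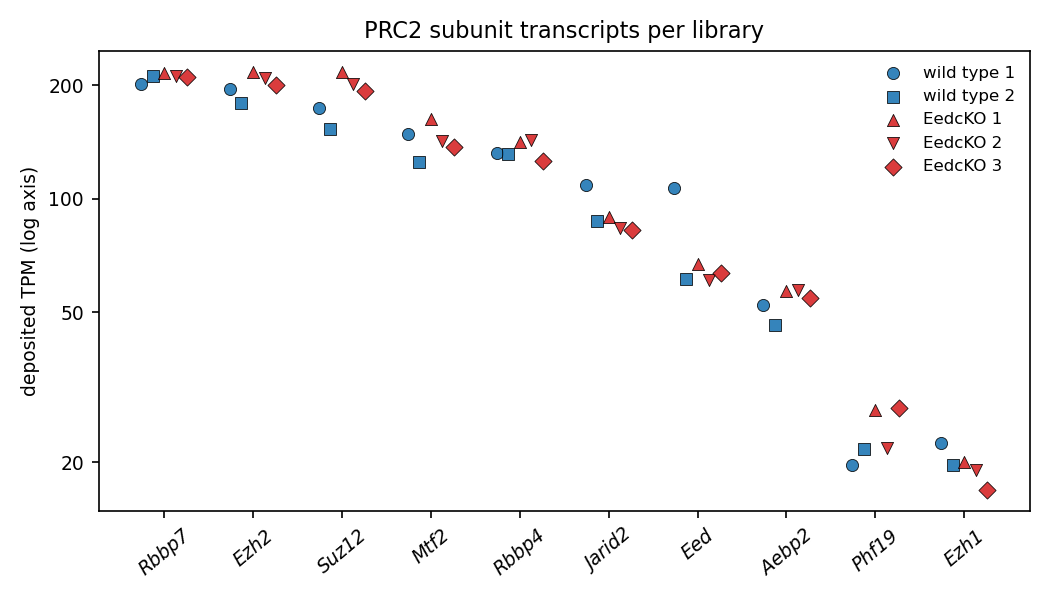
Deposited TPM (log axis) of the 10 PRC2 genes, ordered by their mean, with 1 point per library and wild type in blue and EedcKO in red. Eed has 1 high point, wild type 1 at 106 TPM, and 4 points between 60.9 and 66.9 TPM.

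None of the 10 members passed the test between EedcKO and wild type, where 3.2% of all genes tested passed (448 of 13989; edgeR quasi-likelihood test, Benjamini-Hochberg adjusted p below 0.05). 1 member, Suz12, had an unadjusted p under 0.05, as had 17.2% of all genes tested, and DESeq2 and limma-voom also called 0 members. The log2 fold changes (EedcKO over wild type) were positive for 7 members and negative for 3, with a median of 0.07, against 0.01 for all genes tested. The median size of the change was 0.19 for the members and 0.16 for all genes tested. For 8 of the 10 the 95% interval lay within 1.5-fold in both directions, the exceptions being Eed and Phf19. These intervals bound the difference and do not show that the groups were equal. Without wild type 2 the log2 fold changes were 0.09 for Ezh2, -0.28 for Ezh1, 0.10 for Aebp2, 0.38 for Phf19, 0.04 for Rbbp4, 0.07 for Rbbp7 and -0.02 for Mtf2, none of which passed. In that fit 6.2% of genes passed, 2.07% as higher and 4.12% as lower, and the only member among them was Eed. Without wild type 1, 7.02% of genes passed, 3.01% as higher and 4.02% as lower, and Suz12 was the only member among them.

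Eed itself, which lies on chromosome 7 (89954654 to 89980983, minus strand, mm10), showed a split within the wild type. Wild type 1 had 404 counts and wild type 2 had 238, with exact Poisson intervals of 366 to 445 and of 209 to 270, and 251, 233 and 247 in EedcKO 1, 2 and 3. In CPM these were 85.0, 48.3, 52.3, 48.1 and 50.5. Wild type 1 alone was high, and the library labelled wild type 2 lay inside the range of the EedcKO libraries, so the groups overlapped. The group means were 66.6 ± 25.9 CPM (SD, n = 2) and 50.3 ± 2.11 CPM (SD, n = 3). The fold was 0.76 with a 95% interval of 0.53 to 1.08 (log2 fold change -0.40, SE 0.22, edgeR adjusted p = 0.412).

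Against wild type 1 alone, EedcKO kept 59.2% of the Eed level (log2 fold change -0.75). Against wild type 2 alone EedcKO had 104% (log2 fold change 0.04). Both fits assume that the lone wild-type library varies like the EedcKO group. The ratio of wild type 1 to wild type 2 was 1.76 (counting interval 1.496 to 2.07). Of 6044 genes within 1 log2 CPM of Eed's mean, 2.32% differed at least as much between the wild-type libraries in either direction, and 63 (1.04%) did so with wild type 1 higher. The low Eed count of wild type 2 was known beforehand, so these shares describe the gap and do not test it. No other member had a ratio between the wild-type libraries above that of Jarid2 (1.25). The 3 EedcKO libraries were close to each other, with a range of 0.12 log2 CPM, against a median range of 0.21 for the same 6044 genes. The counts cover every exon of Eed, including any that a deletion would leave in place, and so are a partial check of the labels. Over all genes, the wild-type libraries lay apart from each other and from the EedcKO libraries. The measure was the chi-square per gene, a distance between 2 libraries that is near 1 for sampling noise. It was 8.06 between the wild-type libraries, 8.88 to 9.79 from wild type 2 to EedcKO, and 7.76 to 10.4 from wild type 1 to EedcKO. The EedcKO libraries were 2.55 to 4.61 from each other. Wild type 1 was nearer to EedcKO 1 (7.76) than to wild type 2. The part of the other-tissue markers of wild type 2 in these distances was not tested. All directions between groups below rest on a wild-type group whose 2 libraries differ in Eed, with wild type 2 in the EedcKO range. Whether either label is wrong was not tested.

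The neighbours Hikeshi and Picalm had smaller differences between the wild-type libraries than Eed. Hikeshi, a nuclear import factor for heat shock proteins that lies next to Eed (chromosome 7, 89917529 to 89941204), had 219 counts in wild type 1, 239 in wild type 2, and 243, 234 and 244 in EedcKO. Its ratio of wild type 1 to wild type 2 was 0.95 (0.79 to 1.15). Picalm, a clathrin assembly gene on the other side (90130213 to 90213465), had 1171 and 1017 counts in wild type and 1135, 1187 and 1142 in EedcKO, with a ratio of 1.19 (1.10 to 1.30). Further out, Ccdc81 had 25 counts in wild type 2 and 4 to 6 in each other library, and Ccdc83 had 1 count in all. E230029C05Rik, a noncoding transcript that overlaps the start of Eed on the other strand, had 19 and 10 counts in wild type and 8, 12 and 13 in EedcKO, with a ratio of 1.97 (0.872 to 4.74). Whether counting was by strand is not stated in the labels, so reads of Eed and of this transcript in their shared stretch cannot be told apart. Another annotated gene, Gm45120, overlaps Eed on its own strand. Rbbp4, Rbbp7 and Mtf2 also overlap a neighbouring protein-coding gene (Sync, Txlng and Tmed5). Ezh2, Suz12, Jarid2 and Phf19 overlap only noncoding genes or pseudogenes.

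HOX genes, which PRC2 keeps silent in the forebrain, were read beside Eed in each library. The 39 genes summed to 2 counts in wild type 1 (0.242 to 7.22), 134 in wild type 2 (112 to 159), and 85, 184 and 62 in EedcKO 1, 2 and 3. The library with the high Eed count was the one with almost no HOX counts. The library labelled wild type 2 lay within the EedcKO range for HOX as for Eed, with 28 of the 39 genes detected against 18 to 30 in EedcKO and 2 in wild type 1. The filter on low counts kept 2 of the 39, Hoxd8 and Hoxb8, and both missed the threshold (Hoxd8 log2 fold change 1.17, edgeR adjusted p = 0.499; Hoxb8 0.99, edgeR adjusted p = 0.702). The epithelial, muscle and choroid plexus markers that also set wild type 2 apart are given above, and their part in its HOX counts was not tested.

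**Figure D2:**
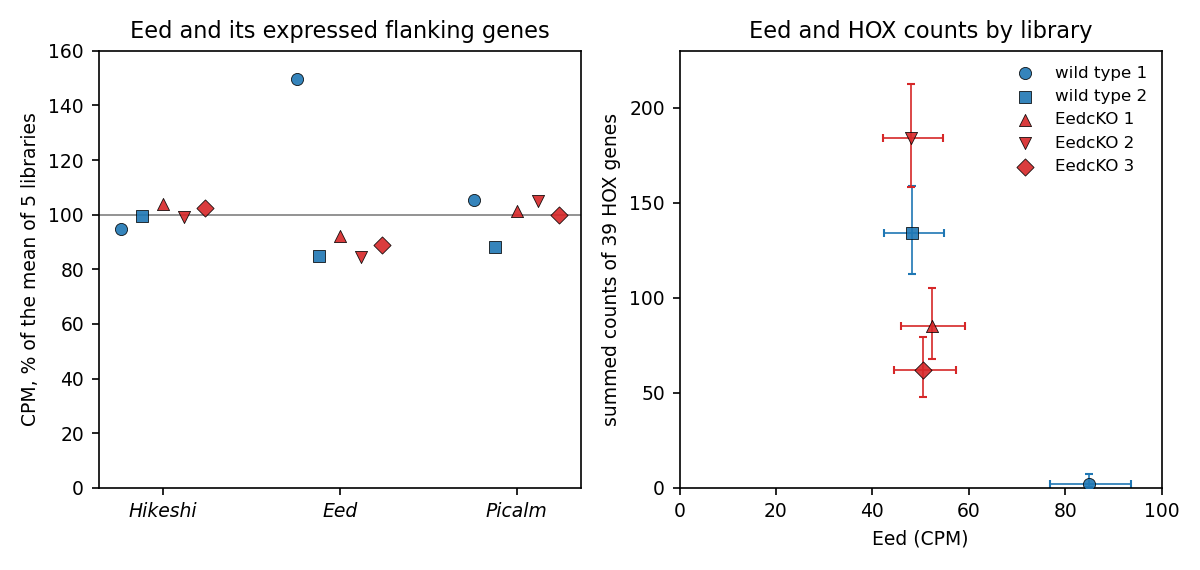
Left, CPM of Eed and of its expressed flanking genes as a percentage of each gene's mean over the 5 libraries. Right, Eed CPM against the summed counts of 39 HOX genes, with 95% Poisson intervals. Wild type 1 stands alone at 85.0 CPM of Eed and 2 HOX counts, and wild type 2 lies among the 3 EedcKO libraries.

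The 5 genes whose pattern was most like that of Eed were Sybu, Zkscan2, Cacna1e, Nav3 and Shank1. Likeness was the root mean square difference of log2 CPM over 5 libraries, each gene centred on its own mean, and 11785 genes averaging 3 log2 CPM or more were compared. It was 0.042 log2 units for Sybu, a microtubule-linked syntaxin-binding protein, and 0.062 for Shank1, a postsynaptic scaffold, against a median of 0.34 for all genes compared. Sybu had 346 and 220 counts in wild type and 221, 198 and 215 in EedcKO, a likeness to Eed that the choice of these genes fixes. Cacna1e encodes a neuronal calcium channel, with 649 and 378 counts in wild type and 400, 351 and 367 in EedcKO. A list of 10 neuronal markers also summed highest in wild type 1, at 3278 CPM, with 2552 in wild type 2 and 2482 to 2702 among EedcKO libraries (1 marker of 10 passed as lower, as did 2.17% of all genes tested). The part of neuronal content in the Eed values was not tested.

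The catalytic subunits had fold changes of opposite sign. Ezh2 (chromosome 6, 47530139 to 47595341) had 1291 and 1216 counts in wild type and 1421, 1392 and 1354 in EedcKO, or 272 and 247 CPM against 296, 287 and 277. All 3 EedcKO libraries were above both wild-type libraries, with a fold of 1.11 (0.95 to 1.29; edgeR adjusted p = 0.500). Ezh1 (chromosome 11, 101191115 to 101226463) had 166 and 149 counts in wild type and 146, 142 and 127 in EedcKO, or 34.9 and 30.2 CPM against 30.4, 29.3 and 26.0. EedcKO 1 exceeded wild type 2 by a small margin, so the groups overlapped, with a fold of 0.88 (0.70 to 1.10; edgeR adjusted p = 0.567). Neither difference passed the test.

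The ratio of Ezh1 to Ezh2 within a library needs no scaling between libraries. It was 0.115 and 0.110 in wild type and 0.0922, 0.0916 and 0.0842 in EedcKO, on TPM. Every EedcKO library was below both wild-type libraries, and wild type 2 was close to wild type 1 in this measure. The mean log2 difference was -0.34 (exact two-sided permutation test, p = 0.1, adjusted p = 0.133 over 4 ratios), and -0.37 without wild type 2. With 2 libraries against 3, 0.1 is the smallest p the design allows.

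Suz12 (chromosome 11, 79993106 to 80034123) had the smallest p of the members. It had 854 and 771 counts in wild type and 1048, 994 and 968 in EedcKO, or 179.6 and 156 CPM against 218, 205 and 198. The groups did not overlap, and the fold was 1.23 (1.05 to 1.45; log2 fold change 0.30, SE 0.10, edgeR adjusted p = 0.163). Against wild type 2 alone it passed (log2 fold change 0.39, edgeR adjusted p = 0.0480, a fit described above), and against wild type 1 alone it did not (0.21, edgeR adjusted p = 0.273).

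Set against the subunits that EED binds, the Eed level did not overlap between the groups. The ratio of Eed TPM to the sum of Suz12, Ezh1 and Ezh2 was 0.272 in wild type 1 and 0.174 in wild type 2, and 0.148, 0.142 and 0.155 in EedcKO. Wild type 2 was nearer to EedcKO than to wild type 1 but lay above all 3 EedcKO libraries. Its Suz12 and Ezh2 were the lowest of the 5 libraries. The mean log2 difference was -0.55 (exact two-sided permutation test, p = 0.1, adjusted p = 0.133 over 4 ratios), and it was -0.23 without wild type 1 and -0.87 without wild type 2.

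The histone-binding pair varied least. Rbbp7, on the X chromosome (162760402 to 162779092), had 579 and 627 counts in wild type and 613, 615 and 621 in EedcKO, or 122 and 127 CPM against 128, 127 and 127. Its coefficient of variation over 5 libraries was 1.94%, and the female and male libraries overlapped. The fold was 1.02 (0.90 to 1.16; edgeR adjusted p = 0.897). Rbbp4 (chromosome 4, 129307100 to 129335370) had 1146 and 1169 counts in wild type and 1213, 1250 and 1119 in EedcKO, or 241 and 237 CPM against 253, 258 and 229. The groups overlapped, with a fold of 1.03 (0.89 to 1.20; edgeR adjusted p = 0.871). The ratio of Rbbp4 to Rbbp7 on TPM was 0.658 and 0.620 in wild type and 0.658, 0.676 and 0.599 in EedcKO, and the groups overlapped (exact two-sided permutation test, p = 1.0).

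**Figure D3:**
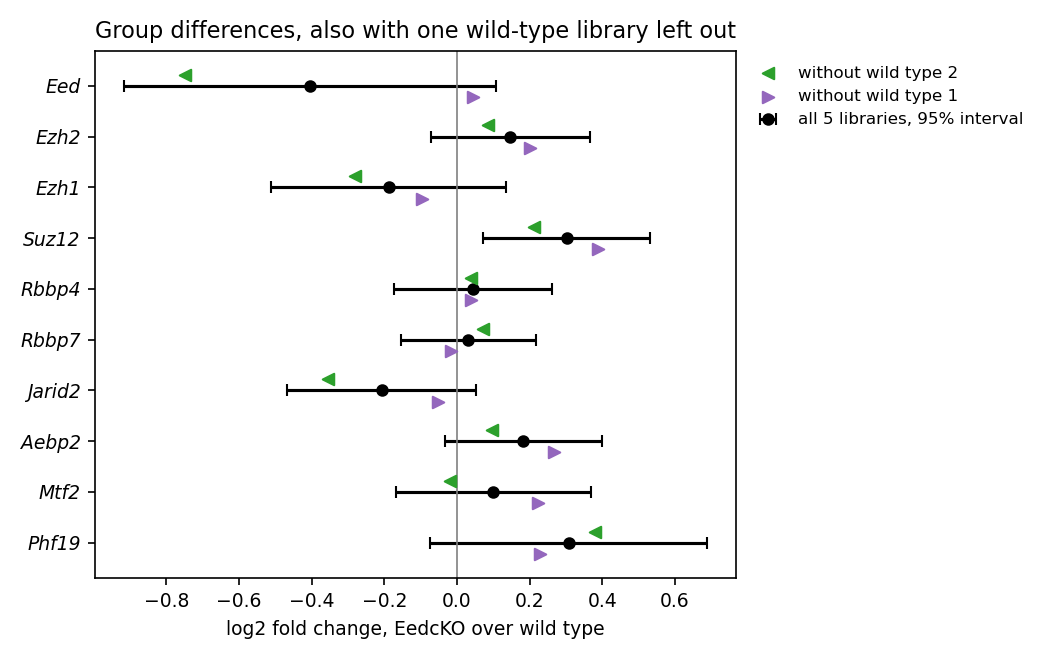
Log2 fold change of each member (EedcKO over wild type) from the edgeR fit, with black points and bars for all 5 libraries and their 95% interval, and coloured triangles for fits without 1 wild-type library. The interval of Suz12 (0.07 to 0.53) alone leaves out 0 before adjustment, and Eed moves from -0.75 without wild type 2 to 0.04 without wild type 1.

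Of the PRC2.2 subunits, Jarid2 and Aebp2 differed in sign. Jarid2, which recruits PRC2 to chromatin (chromosome 13, 44729474 to 44921643), had 1043 and 863 counts in wild type and 852, 814 and 815 in EedcKO, or 219 and 175 CPM against 177, 168 and 167. As for Eed, wild type 1 was high and wild type 2 lay in the EedcKO range. The fold was 0.87 (0.72 to 1.04; edgeR adjusted p = 0.408), and without wild type 2 the log2 fold change was -0.35 (edgeR adjusted p = 0.059). Aebp2, a zinc finger subunit (chromosome 6, 140622663 to 140678472), had 510 and 462 counts in wild type and 549, 562 and 546 in EedcKO, or 107 and 93.7 CPM against 114, 116 and 112. Its groups did not overlap, with a fold of 1.13 (0.98 to 1.32; edgeR adjusted p = 0.374).

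Of the PRC2.1 subunits, Mtf2, which binds unmethylated CpG DNA (chromosome 5, 108065674 to 108109004), had 839 and 724 counts in wild type and 911, 811 and 794 in EedcKO, or 176 and 147 CPM against 190, 167 and 162. The groups overlapped, with a fold of 1.07 (0.89 to 1.29; edgeR adjusted p = 0.742). Phf19, a second Polycomb-like protein (chromosome 2, 34893757 to 34914026), had 98 and 111 counts in wild type and 136, 110 and 142 in EedcKO, or 20.6 and 22.5 CPM against 28.3, 22.7 and 29.0. In CPM, EedcKO 2 exceeded wild type 2 by little, and the Poisson intervals of those 2 counts (90.4 to 133 and 91.3 to 134) overlap almost fully. The fold was 1.24 (0.95 to 1.61; edgeR adjusted p = 0.399).

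The summed TPM of Jarid2 and Aebp2 over that of Mtf2 and Phf19 was 0.955 and 0.910 in wild type and 0.768, 0.858 and 0.832 in EedcKO. All EedcKO libraries were below both wild-type libraries, with a mean log2 difference of -0.19 (exact two-sided permutation test, p = 0.1, adjusted p = 0.133 over 4 ratios), and -0.22 without wild type 2. In all, 4 members (Ezh2, Suz12, Aebp2 and Phf19) had EedcKO libraries that were all above the wild type, and none had them all below. Over all genes tested, 33.8% did not overlap, 16.4% being above and 17.4% below. Wild type 2 was nearer to the EedcKO mean than to wild type 1 in 5 members (Eed, Ezh1, Rbbp7, Jarid2 and Mtf2), as in 52.6% of all genes tested, so this count of members is near the background. The mirror case, wild type 1 nearer to the EedcKO mean, held for 54.9% of all genes tested.

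**Figure D4:**
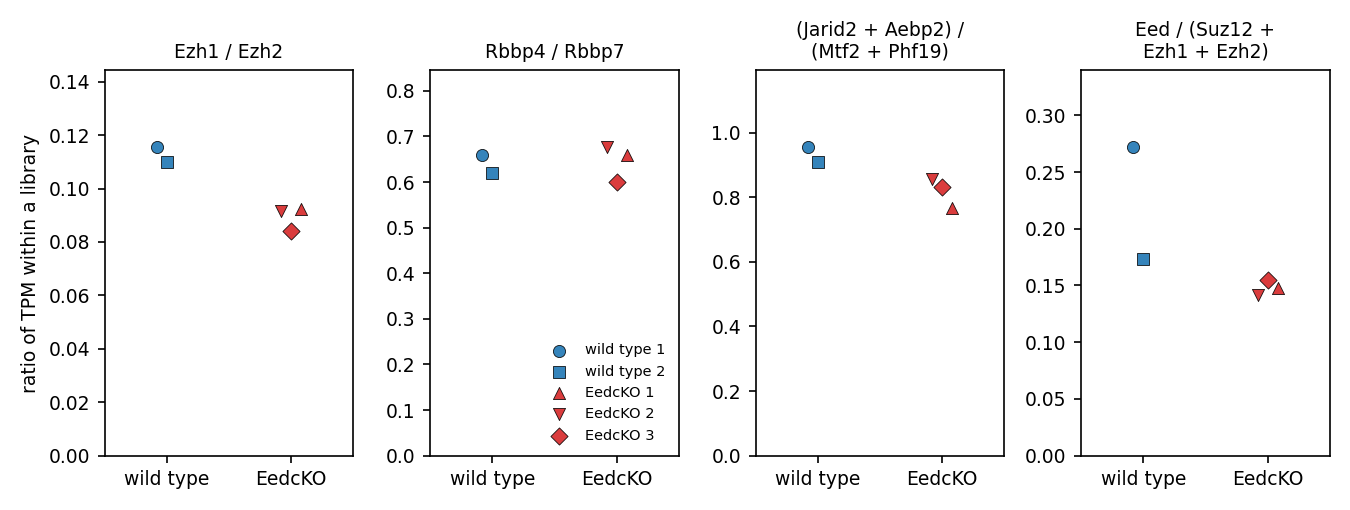
Ratios of TPM within each library for 4 pairs of subunits or sums of subunits, with 1 point per library. In 3 panels every EedcKO point is below both wild-type points, and in the Rbbp4 over Rbbp7 panel the groups overlap (0.599 to 0.676). Ezh1 and Ezh2 enter more than 1 panel, so the panels are not independent. No share over ratios of other genes was computed.

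Replication genes of S phase were read beside the members, since several PRC2 genes are known to follow the cell cycle. Of 18 S phase genes, 8 had an unadjusted edgeR p under 0.05 (17.2% of all genes tested). None of the 18 passed with edgeR or limma-voom, and DESeq2 called 1. Their log2 fold changes were positive in 17 of 18, with a median of 0.22 against 0.01 for all genes tested, and in 14 of 18 the EedcKO libraries were all above the wild type (16.4% of all genes tested). Without wild type 2 the median was 0.25 and again none passed. Mcm4, a subunit of the replicative helicase, had 674 and 655 counts in wild type and 821, 842 and 944 in EedcKO (log2 fold change 0.39, edgeR adjusted p = 0.0764; DESeq2 adjusted p = 0.0448). Cdc6, which loads that helicase, had a log2 fold change of 0.38 (edgeR adjusted p = 0.136). The neural progenitor list of 8 genes summed to 1566 and 1446 CPM in wild type and 1685 to 1752 CPM in EedcKO. Of these 8, 2 passed as higher (1.04% of all genes tested). Pax6 was among them, as it was among the forebrain markers that passed. The part of progenitor content in the Ezh2, Suz12, Aebp2 and Phf19 values was not tested.

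Other genes of the PRC2 system gave 0 calls in 3 lists and 1 in the fourth. Of 5 further PRC2 genes, 3 could be tested and none passed. Epop, a PRC2.1 partner, had 136 counts in wild type 1 but 315 in wild type 2, and 268, 307 and 387 in EedcKO (log2 fold change 0.51, edgeR adjusted p = 0.497). Wild type 1 alone was low, so that Epop passed without wild type 2 (log2 fold change 1.22, edgeR adjusted p = 0.0132) and was at 0.03 without wild type 1. Lcor, the host gene of the PRC2.1 partner PALI1, was low in wild type 2 alone, with 78 counts against 265 in wild type 1 and 235, 185 and 151 in EedcKO (log2 fold change 0.14, edgeR adjusted p = 0.931). Without wild type 1 it passed as higher (1.30, edgeR adjusted p = 0.0271). Ezhip, an inhibitor of PRC2, matched through its RefSeq synonym AU022751, had at most 1 count per library.

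The demethylases that remove the PRC2 mark, listed with Uty, also did not pass with all 5 libraries. Kdm6b had 1600 and 1237 counts in wild type and 1207, 1307 and 1365 in EedcKO (log2 fold change -0.14, edgeR adjusted p = 0.689). Kdm6a, an X-linked gene known to escape X inactivation, had 583 and 525 counts in wild type and 636 in EedcKO 1, all female, and 421 and 424 in the male EedcKO 2 and 3. Its Y-linked counterpart Uty had 251 and 206 counts in those male libraries and at most 1 in the female ones, so the values of this pair follow sex. Without EedcKO 1, the female EedcKO library, Uty passed as higher (edgeR adjusted p = 0.00182). None of 5 H3K36 methyltransferases, which write a mark that hinders PRC2, passed (Ash1l log2 fold change 0.18, edgeR adjusted p = 0.695; Nsd1 0.12, edgeR adjusted p = 0.755). Without wild type 1, Ash1l passed as higher (0.53, edgeR adjusted p = 0.0259).

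RBBP4 and RBBP7 also serve in deacetylase, remodelling and histone chaperone complexes. Of 19 tested partner genes from those complexes 1 fell and none rose, where 2.17% of all genes tested passed as lower. The gene was Chd5, a remodeller of the NuRD complex known for its expression in neurons. It had 928 and 699 counts in wild type and 426, 461 and 500 in EedcKO, and it fell. Its mean was 168 ± 37.8 CPM (SD, n = 2) in wild type and 95.4 ± 6.77 CPM (SD, n = 3) in EedcKO (log2 fold change -0.82, SE 0.14, edgeR adjusted p = 0.0283). Wild type 1 was again the highest library, as in the neuronal marker sum, whose part in this result was not tested. Chd5 also passed without wild type 1 (-0.59) and without wild type 2 (-1.03), but not without EedcKO 1, 2 or 3 (edgeR adjusted p = 0.0794, 0.105 and 0.143). With embryo sex as a term the edgeR adjusted p was 0.235, in a design where both male libraries are EedcKO.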

How the data were processed

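Polyadenylated RNA from 5 mouse forebrain samples was sequenced with BGISEQ-500 libraries, per the labels' protocols. Reads were aligned to mm10, with HISAT2 2.2.0 named, per the submitters' processing notes. Not given in the sources used here are the counting tool, its annotation and its use of strand. Tables of whole-number counts and of TPM were deposited by the authors, with 56196 and 24926 rows, and count totals are far below the number of mapped reads that the series' design text states. For the 10 members the deposited TPM are proportional to counts over the exonic length in GENCODE M21. Rows without a symbol (28277, with 2.01% to 2.16% of the counts) were left out, and 0 columns belonged to other samples. Coordinates come from GENCODE M21 (GRCm38).

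Counts were fitted in R 4.3.3 with edgeR 4.0.16 (filterByExpr, TMM, robust glmQLFit, glmQLFTest on group), adjusted over 13989 genes at 0.05. Intervals are at 95% and, for counts and ratios of 2 libraries, leave out any error but that of counting, as no molecular identifiers are mentioned. The fit was first tested on simulated data. There it found 37.9% of 1.5-fold, 63.6% of 2-fold and 93.8% of 4-fold changes, and 5 of 133 calls were false. Named genes were the members, the flanking genes of Eed, list members past the threshold or the 2 with the smallest p, and the 5 genes most like Eed. Beyond this rule Kdm6a, Ezhip, Hoxc10 and the forebrain markers were named after their values were seen. The members and lists were chosen with earlier results of these data known. DESeq2 1.42.0 and limma 3.58.1 served as alternatives. Libraries differed pairwise by 2.55 to 10.4 times the chi-square of sampling noise, so none was treated as a duplicate.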

Additional observations from a re-analysis of the deposited data

How the results depend on the processing

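Over 17 alternatives for each of 10 members, 165 of 170 log2 fold changes kept their direction and their side of the threshold. Suz12 passed without wild type 1 and Eed without wild type 2, as given above. When 1 library was left out, Eed ran from -0.75 (without wild type 2) to 0.043 (without wild type 1), Rbbp7 from -0.016 (without wild type 1) to 0.070 (without wild type 2) and Mtf2 from -0.020 (without wild type 2) to 0.22 (without wild type 1). Leaving out 1 library gave 0 to 1 members, 0 to 3 list members and 0 to 1012 of all genes past the threshold. The 0 calls came without EedcKO 3. There 1886 unadjusted edgeR p-values were under 0.05, and calls numbered 240 by DESeq2 and 0 by limma-voom. Without EedcKO 1 and without EedcKO 2 there were 262 and 84 calls. The difference in summed HOX CPM, 8.99 over all libraries, ran from -4.39 (without wild type 1) to 22.4 (without wild type 2). The log2 difference in Rbbp4 over Rbbp7, 0.01, ran from -0.032 to 0.062 and was below 0 without wild type 2, EedcKO 1 or EedcKO 2. The other 3 ratios kept their sign when each library was left out, and all 4 did with counts in place of TPM. The 448 calls fell to 203 and 152 with limma-trend on log2 of TPM plus 1 and plus 0.1, and to 85 with no filter, and the list calls to 0, 0 and 1 (Hoxc10 in place of Chd5). List calls numbered 2 with library size alone and 2 with DESeq2, where Mcm4 joined Chd5. With embryo sex as a term 0 genes and 0 list members passed (1611 genes at an unadjusted edgeR p under 0.05). A fit of the 3 female libraries, added after the data were seen, gave 0 and 0 (902 unadjusted). With the replicate number as a block 0 genes and 0 list members passed (2169 unadjusted). The 2 shared numbers had correlations of deviations of 0.11 and 0.12, but the labels do not say that they pair the samples. The 2 wild-type deviations mirror each other, so swapping the wild-type library only flips the sign (-0.11 and -0.12). The cause of these changes was not tested. With 2 against 3 libraries of about the same depth, the intervals of Eed and Phf19 reach past 1.5-fold.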
